A study of Mus musculus with 6 samples.

Results

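The amino acid and peptide transporter genes are the protein-coding genes of the solute carrier (Slc) families 1, 3, 6, 7, 15, 36, 38 and 43. They were picked from the deposited expression table by gene symbol alone, so no measured value entered the choice. Of 36976 genes in the table, 68 matched, under 67 different symbols, because Slc38a9, the lysosomal arginine sensor, is listed under a pair of gene models. One match, Slc7a6os, carries the family's letters only because it lies beside Slc7a6 on the opposite strand, and it is not a carrier.

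Gene expression was measured by RNA sequencing in long-term (LT) stem cells of chronic myelogenous leukaemia (CML), sorted from bone marrow mononuclear cells as CD150+CD48-CD135- cells of the Lineage-Sca-1+cKit+ fraction. There were 3 libraries of Gdpd3+/+ cells, numbered 1 to 3, and 3 of Gdpd3-/- cells, numbered 5 to 7. All donors were tet-CML mice on the C57BL/6 strain. In both genotypes they carried an SCL-tTA transgene, which drives a doxycycline-repressed activator from Scl regulatory elements active in blood stem and progenitor cells, and a TRE-BCR-ABL1 transgene. BCR-ABL1 was induced by withdrawing doxycycline at 5 weeks of age, and the cells were taken 5 weeks later. The knockout allele was a small CRISPR/Cas9 deletion in Gdpd3, which encodes a lysophospholipase D. The Gdpd3+/+ RNA came from 22 male and 12 female mice and the Gdpd3-/- RNA from 5 males and 5 females, so each library pooled animals and the proportions of the sexes differed between the genotypes. Genotype and sex proportion therefore cannot be told apart here. The number of animals behind each library is not given in the sources used here, and p-values measure only the spread between these libraries.

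Amino acids cross the plasma membrane on carriers that fall into a few mechanisms. Exchangers such as Slc1a5 and the Slc7a5 to Slc7a8 light chains swap one amino acid for another, sodium-coupled carriers such as Slc38a1 and Slc38a2 concentrate glutamine and alanine, and facilitative carriers of the Slc43 family let neutral amino acids flow down their gradient. The light chains reach the surface only when bound to a heavy chain, Slc3a2, which is the CD98 antigen of activated blood cells. Inside the cell, lysosomal carriers such as Slc38a9, Slc36a1, Slc36a4 and Slc15a4 move amino acids and small peptides out of the lysosome or sense them there, next to the complex that recruits the growth-promoting kinase mTORC1. Blood stem cells and leukaemia stem cells are known to depend on this supply.

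The values are fragments per kilobase of gene length, scaled to the depth of the library (FPKM), a level that can be compared between genes. The depths recovered from the values were 49753000 to 62762000 fragments in the Gdpd3+/+ libraries and 21335000 to 36421000 in the Gdpd3-/- libraries. Gdpd3 itself was at 7.30, 3.29 and 2.95 FPKM in the Gdpd3+/+ libraries and at 0.110, 0.0129 and 0.681 FPKM in Gdpd3-/- libraries 5, 6 and 7, with no overlap. All 12 long-term stem cell markers were above 0 in each library, among them Kit, Ly6a and Slamf1. The genotypes also differed in markers of other cells. The summed level of 20 skeletal muscle genes was 1010 to 1495 FPKM in the Gdpd3+/+ libraries and 13003, 18602 and 2476 FPKM in Gdpd3-/- libraries 5, 6 and 7. In each of these, 20 of 20 were above every Gdpd3+/+ library. Of all genes with a mean of at least 1 FPKM, 28.2% were higher without overlap. In limma 0 of the 20 were called at an adjusted p under 0.05, and 20 had an unadjusted p under 0.05. The sum of 13 granulocyte genes was 30293 to 33367 FPKM against 8662 to 14372 FPKM, and that of 11 B and plasma cell genes 2357 to 3005 FPKM against 1120 to 1993 FPKM. That of 7 multipotent progenitor genes was 198 to 203 FPKM against 357 to 478 FPKM. The 10 monocyte and macrophage genes summed to 1797 to 1876 FPKM against 551 to 761 FPKM, but Ly6c2 made up most of that sum and was called lower. Ms4a6c was called higher, and the median log2 difference of the list was 0.34, beside 0.24 over all genes tested. None of the muscle, granulocyte, monocyte or progenitor markers was at 0 in any library. In RNA from a sorted pool, fewer cells of a type and less RNA per cell cannot be told apart, and the part of these transcripts in the transporter values was not tested.

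Promoters were read for the transporter genes because the amino acid response, a programme in which the transcription factor Atf4 switches on carriers and amino acid synthesis when amino acids run short, acts through a short element spelled TGATGNAA. RefSeq promoters of build GRCm38.p6, the 250 bases before each annotated start, were found for 48 of the transporter genes, in 69 windows. The element, searched on both strands, was in 3.45% of 32851 promoters in the whole table and in 3 of the 69 windows (4.35%), of 2 transporter genes, Slc7a11 and Slc7a7. The 3 promoters below are those of Slc7a11, the cystine carrier that is a classical Atf4 target, of Slc7a7, a light chain, and of Slc3a2, the heavy chain that both need. They lie at chr3:50443614-50443863, chr14:54417945-54418194 and chr19:8713898-8714147, all on the minus strand, and are written 5′ to 3′ with TGATGNAA or its reverse complement in capitals.
Slc7a11: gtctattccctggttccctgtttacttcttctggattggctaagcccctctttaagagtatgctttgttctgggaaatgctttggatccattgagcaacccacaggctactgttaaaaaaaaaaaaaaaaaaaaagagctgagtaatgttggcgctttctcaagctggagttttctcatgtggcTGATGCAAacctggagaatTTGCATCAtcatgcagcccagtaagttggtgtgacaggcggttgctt
Slc7a7: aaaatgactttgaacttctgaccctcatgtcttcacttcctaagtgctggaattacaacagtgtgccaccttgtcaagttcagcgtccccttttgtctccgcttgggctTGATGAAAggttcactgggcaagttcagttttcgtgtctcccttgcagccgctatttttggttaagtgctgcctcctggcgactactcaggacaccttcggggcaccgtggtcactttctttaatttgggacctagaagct
Slc3a2: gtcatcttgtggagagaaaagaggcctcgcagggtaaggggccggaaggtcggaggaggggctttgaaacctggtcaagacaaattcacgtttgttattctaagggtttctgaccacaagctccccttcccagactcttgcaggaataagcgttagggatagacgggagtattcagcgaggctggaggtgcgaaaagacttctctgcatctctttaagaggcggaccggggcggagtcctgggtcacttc
Slc7a11 held the element at 66 bases before the start on the gene's strand and at 47 bases before it on the other strand, where its letters read TTGCATCA. Slc7a7 held it at 141 bases before the start of the window shown, and no match lay in the Slc3a2 window, which says only that these letters are not in it. The E-box CACGTG, a palindrome, was in 6.02% of all promoters and in 8 of the 69 windows of transporter genes (11.6%), those of Slc1a6, Slc1a7, Slc36a1, Slc38a5, Slc38a7, Slc43a1, Slc6a3 and Slc7a14, and it shares no letters with the other element in these windows. These matches are a description of letters and not of binding.

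A few carriers made up most of the transporter RNA. The 10 genes with the highest mean held 75.3% of the summed FPKM of the transporter genes. They were Slc3a2, Slc38a2, Slc1a5, Slc43a3, Slc7a5, Slc38a10, Slc7a6os, Slc38a1, Slc6a6 and Slc7a6, in that order. In all, 27 genes had a mean of at least 1 FPKM over the 6 libraries and 41 were below it. The summed level of all 68 was 423, 442 and 431 FPKM in Gdpd3+/+ libraries 1, 2 and 3. It was 368, 370 and 418 FPKM in Gdpd3-/- libraries 5, 6 and 7, so each knockout sum was lower, with library 7 nearest. Most of that difference lay in Slc3a2 alone, at a mean of 110 FPKM in Gdpd3+/+ and 68.7 FPKM in Gdpd3-/- libraries. The summed light chains and proton-coupled carriers were also lower in every knockout library. The summed cationic and glutamate carriers were higher, and sums of the other classes overlapped, among them the sodium-coupled neutral carriers.

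**Figure D1:**
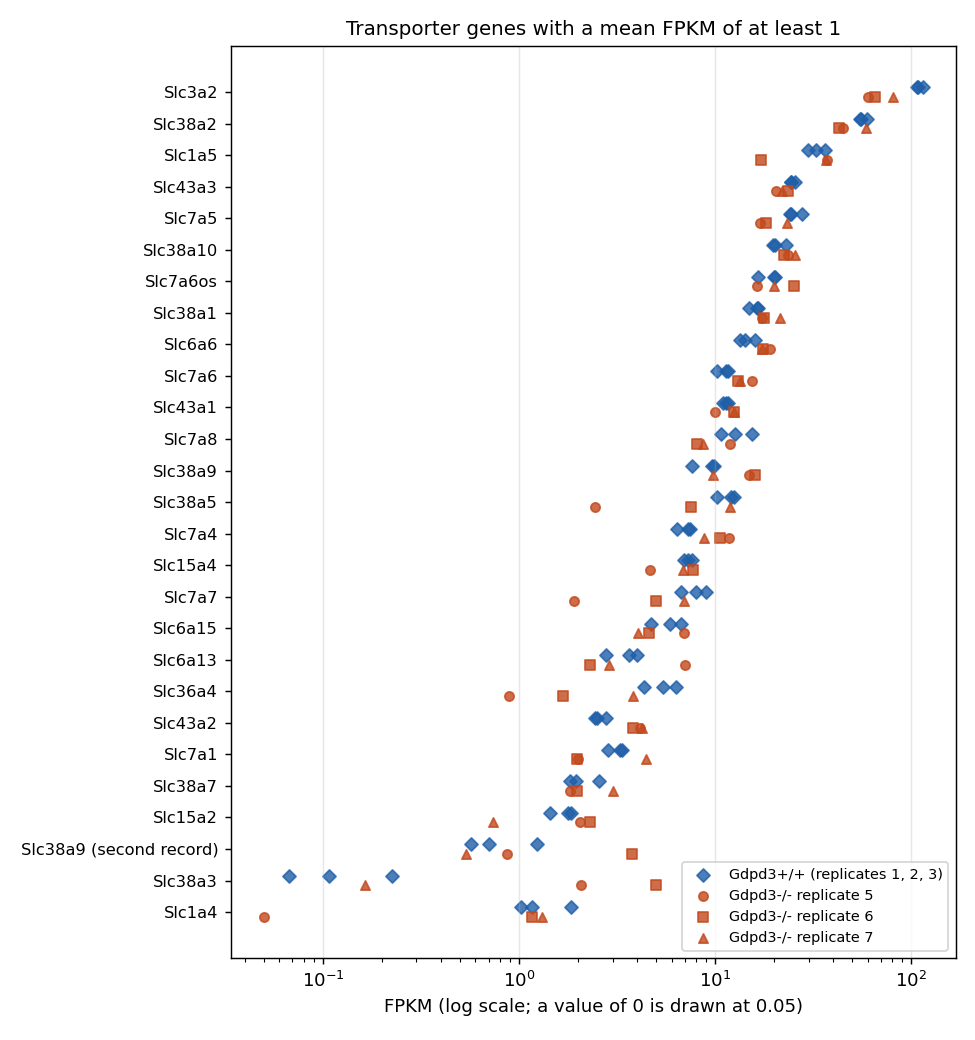
FPKM on a log scale for the 27 transporter genes with a mean of at least 1 FPKM, with 1 point per library; diamonds are the 3 Gdpd3+/+ libraries and circles, squares and triangles Gdpd3-/- libraries 5, 6 and 7, and a value of 0 is drawn at 0.05. Slc3a2 is the highest in every library, its knockout points lie left of its wild-type points, and knockout library 7 often lies nearest to the diamonds.

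No transporter gene passed the test for a difference between the genotypes. In limma on log2(FPKM + 0.1), with Benjamini-Hochberg adjustment over all 24689 genes with a mean of at least 0.05 FPKM, 0 of 56 tested transporter genes were called higher and 0 lower in Gdpd3-/- cells at an adjusted p under 0.05. Over all genes tested, 1.71% were called, 1.09% higher and 0.616% lower. At an unadjusted p under 0.05 the transporter genes numbered 11, of which 7 were higher and 4 lower, against 22.2% of all genes (16.5% higher and 5.76% lower), so their 19.6% was near the background. Of the other 12 genes, 9 were under the filter and 3, Slc6a14, Slc7a12 and Slc7a15, were listed at 0 in all 6 libraries.

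The median fitted log2 fold change (Gdpd3-/- minus Gdpd3+/+) of the 56 genes was 0.13, and that of all genes tested was 0.24. Scaling by trimmed means of M values (TMM) moved the median of all genes to 0.04 and that of the transporter genes to −0.05, and the counts at an unadjusted p under 0.05 became 1 higher and 8 lower, 16.1% of the transporter genes against 19.8% of all genes under that scaling (8.95% higher and 10.8% lower). Among the 27 genes with a mean of at least 1 FPKM the median was −0.13, beside 0.14 for all 15103 such genes, with 13 positive and 14 negative values. After TMM scaling the medians were −0.33 and −0.08, with 8 positive and 19 negative values. In 5 of the 27 genes (18.5%) every Gdpd3-/- library was above every Gdpd3+/+ library, and in 4 (14.8%) every one was below, against 28.2% and 10.2% of all genes of that level. The 5 were Slc38a1, Slc6a6, Slc7a6, Slc7a4 and Slc43a2, and the 4 were Slc3a2, Slc43a3, Slc7a5 and Slc36a4.

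**Figure D2:**
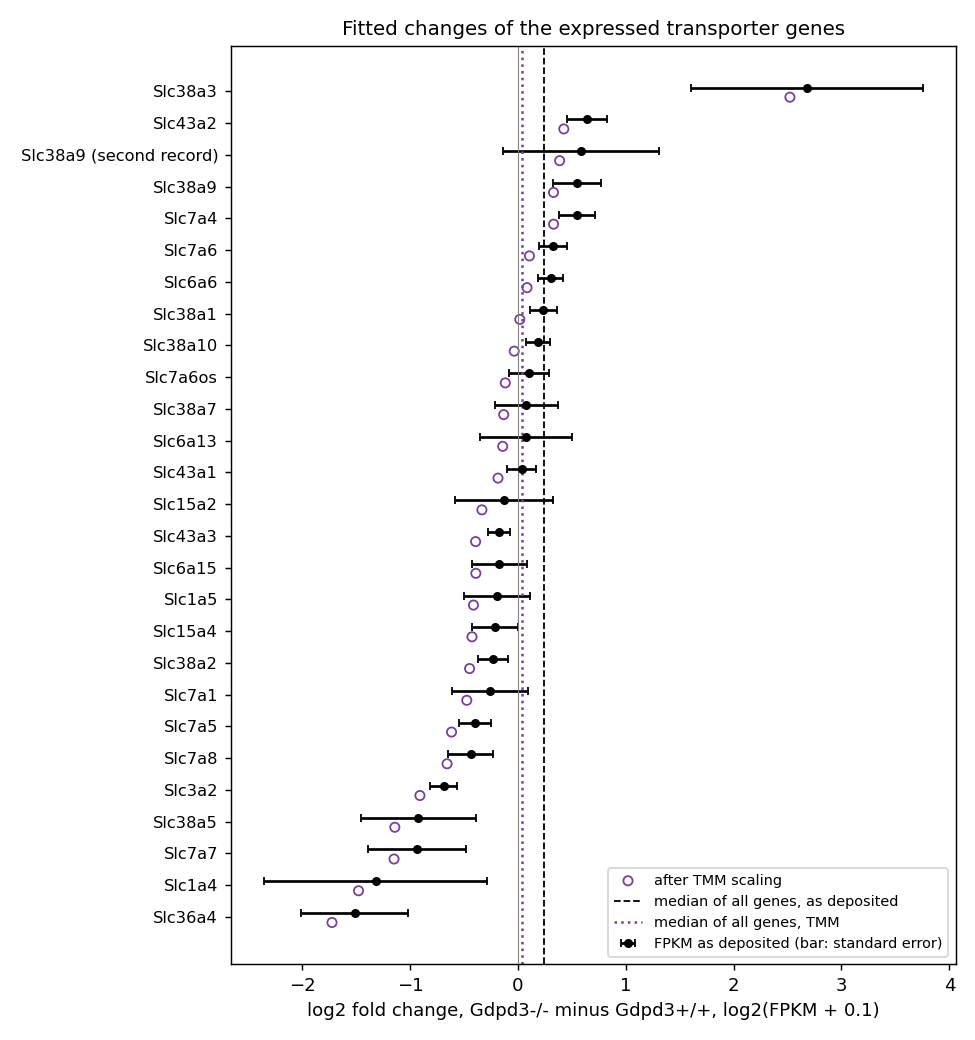
Fitted log2 fold change, Gdpd3-/- minus Gdpd3+/+, for the 27 transporter genes with a mean of at least 1 FPKM; filled points with bars give the value and its standard error from FPKM as deposited, open circles the value after TMM scaling, and the vertical dashed and dotted lines the median of all genes tested under each. TMM scaling shifts every gene to the left, and the sign of Slc38a10, Slc7a6os, Slc38a7, Slc6a13 and Slc43a1 turns, while Slc3a2, Slc7a7 and Slc36a4 lie left of 0 under both.

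The heavy chain Slc3a2 (chr19:8781372-8797859, build mm9, minus strand) had the lowest p of all transporter genes tested. It was at 107, 108 and 114 FPKM in Gdpd3+/+ libraries 1, 2 and 3 and at 60.2, 65.2 and 80.8 FPKM in Gdpd3-/- libraries 5, 6 and 7. All 3 knockout libraries were below all wild-type libraries, and the gap from the highest of them to the lowest wild-type library was wider than the range of the wild-type libraries. The means were 110 ± 3.86 and 68.7 ± 10.8 FPKM (SD, n = 3), a knockout level 0.625 times that of Gdpd3+/+ cells. The fitted log2 fold change was −0.69 (SE 0.13), with a limma adjusted p of 0.056, and the exact two-sided permutation p of the means was 0.1, the smallest that 3 against 3 allows. The adjusted p depended on the scaling and the filter. It was 0.040 after TMM scaling, with 1.45% of all genes called (0.478% higher and 0.976% lower), and 0.042 after quantile normalisation. Among genes with a mean of at least 1 FPKM it was 0.042, with 4.46% of all such genes called (3.12% higher and 1.34% lower). When limma voom was run on the recovered fragments it was 0.031, with 3.66% of all genes called (2.72% higher and 0.94% lower), and with TMM scaling added 0.025, with 2.81% called (1.17% higher and 1.64% lower). It stayed above 0.05 with a pseudocount of 0.01 (0.0501) or 1 (0.064), array weights (0.080), no filter (0.101) and no intensity trend (0.164). Of the leave-one-out fits only that without Gdpd3-/- library 7 gave a call (0.0080). Without any of the other libraries it was 0.078 to 0.271. Slc3a2 was thus called lower under some settings and not under others or in the fit used throughout, and the difference kept its sign in all of them.

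None of the light chains that pair with Slc3a2 passed the test. Slc7a5, the main importer of leucine and other large neutral amino acids, was at 24.1, 27.7 and 24.4 FPKM in the Gdpd3+/+ libraries and at 16.9, 18.2 and 23.2 FPKM in Gdpd3-/- libraries 5, 6 and 7. The genotypes did not overlap, with library 7 just under the lowest wild-type library. The difference of −0.40 (SE 0.15) on the log2 scale had a limma adjusted p of 0.188. Slc7a6, which exchanges arginine for glutamine with sodium, was at 10.3, 11.4 and 11.6 FPKM in Gdpd3+/+ and 15.5, 13.1 and 13.3 FPKM in Gdpd3-/- libraries. Again the genotypes did not overlap, and the log2 difference was 0.33 (SE 0.13; limma adjusted p = 0.203), or 0.11 after TMM scaling. Its neighbour Slc7a6os, of no carrier function, overlapped between the genotypes, at 16.5, 20.2 and 19.9 against 16.3, 25.3 and 19.9 FPKM.

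Slc7a8, which carries small and large neutral amino acids, was at 12.7, 10.8 and 15.4 FPKM in Gdpd3+/+ and 11.9, 8.10 and 8.70 FPKM in Gdpd3-/- libraries, and the genotypes overlapped (log2 difference −0.44, SE 0.21; limma adjusted p = 0.266). Slc7a7, the arginine exporter whose loss causes lysinuric protein intolerance, was at 9.04, 6.67 and 7.99 FPKM against 1.90, 5.00 and 6.97 FPKM. Only library 7 fell inside the wild-type range, and the range of the knockout libraries was larger than the difference of the means (log2 difference −0.93, SE 0.46; limma adjusted p = 0.281). Of its exon length 9.96% overlaps Oxa1l on the opposite strand, and without a stated strand setting reads of the pair cannot be told apart. The cystine and glutamate exchanger Slc7a11 was low, at 0.505, 0.394 and 0.338 FPKM against 0.305, 0.188 and 0.305 FPKM. Its genotypes did not overlap, with a log2 difference of −0.49 (SE 0.43; limma adjusted p = 0.513).

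**Figure D3:**
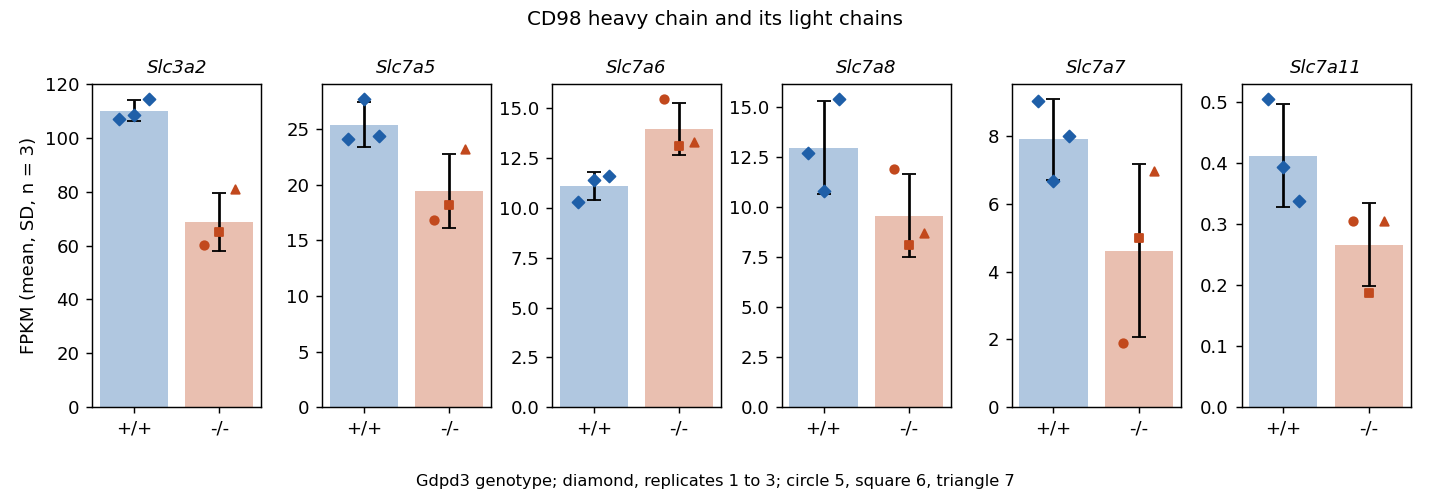
FPKM of the CD98 heavy chain Slc3a2 and of 5 light chains in the 3 Gdpd3+/+ and 3 Gdpd3-/- libraries; bars are means, error bars SD (n = 3), points the libraries, and each panel has its own axis from 0. Slc3a2 and Slc7a5 are lower and Slc7a6 higher in every knockout library, whereas Slc7a8 and Slc7a7 overlap.

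Ratios within a library do not depend on how libraries are scaled to each other. The pairs below were chosen after the values had been seen, so they are given without a test. Slc3a2 FPKM over the summed FPKM of its light chains (Slc7a5, Slc7a6, Slc7a7, Slc7a8, Slc7a10 and Slc7a11) was 1.89, 1.90 and 1.91 in the Gdpd3+/+ libraries and 1.30, 1.46 and 1.53 in Gdpd3-/- libraries 5, 6 and 7. The heavy chain was lower relative to its partners in each knockout library. The sum of the light chains was itself 56.6, 57.0 and 59.7 FPKM against 46.5, 44.7 and 52.8 FPKM. Slc7a6 made up 19.2% ± 0.95 (SD, n = 3) of the light chain sum in Gdpd3+/+ cells and 29.3% ± 4.02 in Gdpd3-/- cells, while the share of Slc7a5 overlapped (44.0% ± 4.10 and 40.3% ± 3.83). The ratio of Slc7a6 to Slc7a5 was 0.427, 0.412 and 0.477 in Gdpd3+/+ and 0.918, 0.719 and 0.575 in Gdpd3-/- libraries.

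Neither of the sodium-coupled neutral carriers Slc38a2 and Slc38a1 passed the test. Slc38a2, the glutamine and alanine carrier that cells raise when amino acids run short, was at 55.6, 59.7 and 54.9 FPKM in the Gdpd3+/+ libraries and at 44.9, 43.04 and 58.7 FPKM in the Gdpd3-/- libraries. Library 7 lay inside the wild-type range and the others below it (log2 difference −0.23, SE 0.14; limma adjusted p = 0.370). Slc38a1, with a like substrate range, was at 16.5, 16.4 and 14.9 FPKM against 17.4, 17.7 and 21.4 FPKM, all knockout libraries being higher (log2 difference 0.24, SE 0.13; limma adjusted p = 0.317), although the difference shrank to 0.02 after TMM scaling. The ratio of Slc38a2 to Slc38a1 was 3.38, 3.65 and 3.68 in Gdpd3+/+ and 2.58, 2.43 and 2.74 in Gdpd3-/- libraries, where all 3 knockout values were lower.

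**Figure D4:**
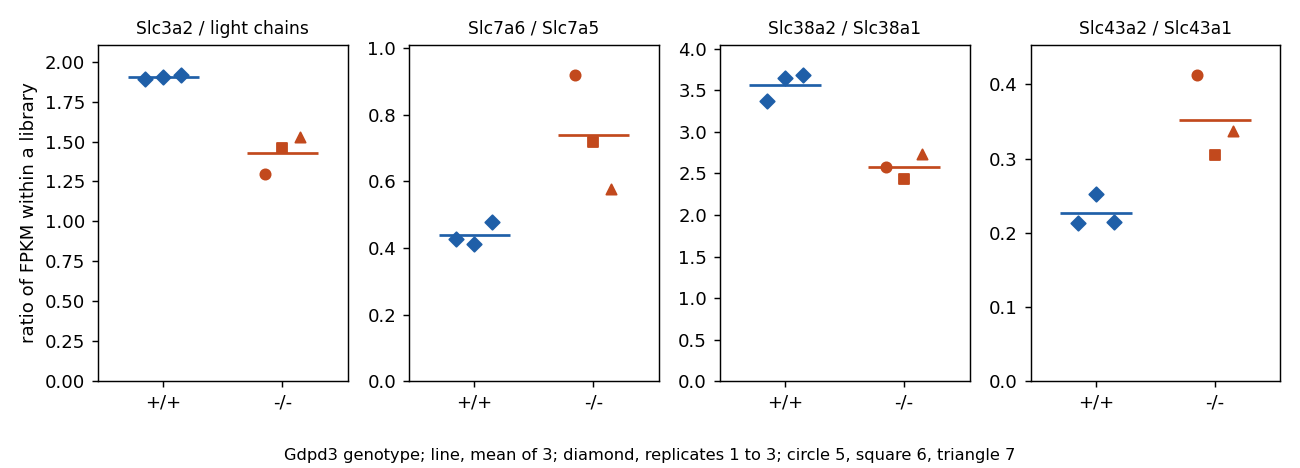
Ratios of FPKM within each library for 4 sets of carriers, with 1 point per library and a line at the mean of 3; each axis starts at 0. The Slc3a2 to light chain and Slc38a2 to Slc38a1 ratios are lower, and the Slc7a6 to Slc7a5 and Slc43a2 to Slc43a1 ratios higher, in every Gdpd3-/- library.

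Slc38a5, a glutamine, histidine and glycine carrier, was at 12.5, 12.1 and 10.2 FPKM in Gdpd3+/+ and at 2.45, 7.53 and 11.9 FPKM in Gdpd3-/- libraries. The knockout libraries spread widely among themselves, and the difference (−0.92, SE 0.53 on the log2 scale; limma adjusted p = 0.350) was not larger than that spread. Slc38a10 was at 19.6, 22.9 and 20.3 against 23.4, 22.5 and 25.6 FPKM, and its log2 difference of 0.19 turned to −0.03 after TMM scaling. Slc38a3, a liver and kidney glutamine carrier outside the rule for named genes and named here after its values were seen, was at 0.107, 0.225 and 0.067 FPKM in Gdpd3+/+ but at 2.08, 5.01 and 0.165 FPKM in Gdpd3-/- libraries. Its high values came from libraries 5 and 6, which also had the highest sums of muscle markers, and library 7 was inside the wild-type range. The part of muscle transcripts in the Slc38a3 values was not tested.

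In the exchanger family, Slc1a5, the sodium-dependent glutamine exchanger of dividing cells, was at 29.9, 36.3 and 32.6 FPKM in Gdpd3+/+ and at 37.3, 17.2 and 37.0 FPKM in Gdpd3-/- libraries. Library 6 alone was low, and the sign of the log2 difference, −0.19 (SE 0.30; limma adjusted p = 0.715), turned to 0.18 without it. The related Slc1a4 was low throughout and listed at 0 in library 5. The 5 glutamate carriers of the nervous system (Slc1a1, Slc1a2, Slc1a3, Slc1a6 and Slc1a7) were low in every library. Together they summed to 0.124, 0.161 and 0.101 FPKM in Gdpd3+/+ and to 1.01, 0.385 and 0.609 FPKM in Gdpd3-/- libraries. The sum was higher in each knockout library, on few fragments, and it was not tested.

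Among the facilitative carriers, Slc43a2, an exit route for leucine and other neutral amino acids, was at 2.49, 2.76 and 2.45 FPKM in Gdpd3+/+ and at 4.14, 3.801 and 4.22 FPKM in Gdpd3-/- libraries. All 3 knockout libraries were higher, library 7 included, and the spread within either genotype was smaller than the gap between them. The level was 1.58 times as high in Gdpd3-/- cells, with a log2 difference of 0.64 (SE 0.19) and a limma adjusted p of 0.119, or 0.43 with an adjusted p of 0.267 after TMM scaling. Its close relative Slc43a1 was at 11.6, 10.96 and 11.4 against 10.05, 12.5 and 12.5 FPKM, and its log2 difference of 0.03 (SE 0.14; limma adjusted p = 0.892) turned to −0.18 after TMM scaling. The ratio of Slc43a2 to Slc43a1 was 0.214, 0.252 and 0.215 in Gdpd3+/+ and 0.412, 0.305 and 0.337 in Gdpd3-/- libraries. Slc43a3, which lies near Slc43a1 on chromosome 2 and carries purine nucleobases, was at 24.4, 25.6 and 24.3 FPKM against 20.4, 23.6 and 22.0 FPKM, without overlap but with a limma adjusted p of 0.370.

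The cationic carriers are the uptake route for arginine and lysine. Slc7a1, their main member outside the liver, overlapped between the genotypes, at 3.27, 2.84 and 3.35 against 1.99, 1.98 and 4.45 FPKM (limma adjusted p = 0.663). The highest and the lowest values were both in knockout libraries. Slc7a4, a relative whose own transport activity is not settled, was at 7.43, 7.30 and 6.36 FPKM in Gdpd3+/+ and at 11.8, 10.6 and 8.75 FPKM in Gdpd3-/- libraries. The genotypes did not overlap, and the log2 difference was 0.55 (SE 0.16; limma adjusted p = 0.120). Of its exon length 13.9% overlaps P2rx6 on the opposite strand.

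Of the lysosomal and proton-coupled carriers, Slc36a4, a carrier of proline and tryptophan, was at 5.44, 6.30 and 4.34 FPKM in Gdpd3+/+ and at 0.885, 1.67 and 3.797 FPKM in Gdpd3-/- libraries. All 3 knockout libraries were lower, library 7 by the least, and the mean was 2.53 times as high in Gdpd3+/+ cells. The log2 difference was −1.51 (SE 0.50), with a limma adjusted p of 0.145, and it was −1.72 after TMM scaling. Slc36a1, the proton-coupled carrier of the lysosome that helps activate mTORC1, was at 0.782, 0.783 and 0.740 FPKM against 0.753, 1.30 and 0.785 FPKM and overlapped. Slc38a9, the arginine sensor that binds the Rag GTPases, was at 9.86, 7.66 and 9.61 FPKM in Gdpd3+/+ and at 14.8, 15.9 and 9.73 FPKM in Gdpd3-/- libraries under its longer gene model (chr13:113450984-113523106, mm9). Libraries 5 and 6 were above every wild-type library and library 7 was not (log2 difference 0.55, SE 0.22; limma adjusted p = 0.212). The shorter model just after it (chr13:113523861-113525267, mm9) was at 0.700, 0.566 and 1.23 against 0.866, 3.79 and 0.537 FPKM.

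The peptide carriers were low apart from Slc15a4, the histidine and dipeptide carrier of endolysosomes that supports Toll-like receptor signalling. It was at 6.98, 7.27 and 7.59 FPKM in Gdpd3+/+ and at 4.67, 7.73 and 6.87 FPKM in Gdpd3-/- libraries, where only library 5 stood well below the wild-type range (limma adjusted p = 0.561). Slc15a3, its macrophage relative, was at 0.141, 0.0885 and 0.166 against 0.461, 0.0250 and 0.380 FPKM, and 28.1% of its exon length overlaps Tmem132a on the opposite strand.

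In the sodium- and chloride-coupled Slc6 family, Slc6a6, the taurine carrier, was by far the most abundant. It was at 14.3, 15.9 and 13.4 FPKM in Gdpd3+/+ and at 19.0, 17.5 and 17.4 FPKM in Gdpd3-/- libraries. The genotypes did not overlap, and library 7 lay with the other knockout libraries. The log2 difference of 0.30 (SE 0.12; limma adjusted p = 0.196) shrank to 0.09 after TMM scaling. Slc6a12, a carrier of betaine and GABA, was at 0.803, 1.02 and 1.92 FPKM in Gdpd3+/+ and at 0.338, 0.351 and 0.365 FPKM in Gdpd3-/- libraries. Here the knockout libraries were nearly equal and the wild-type libraries spread (log2 difference −1.49, SE 0.44; limma adjusted p = 0.118), on 22 to 39 fragments per knockout library. The glycine carrier Slc6a9 was at 0.980, 0.923 and 0.851 against 0.327, 0.789 and 0.753 FPKM, with a limma adjusted p of 0.470, and 27.8% of its exon length overlaps Ccdc24 on the opposite strand.

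At the bottom of the range, some transporter genes had no fragment in any Gdpd3+/+ library and some in a Gdpd3-/- library, although the Gdpd3+/+ libraries were deeper. They were chosen for this pattern, so no test of them is used as support. Slc38a8, Slc1a6, Slc6a7, Slc7a9 and Slc6a18 passed the filter only through the knockout libraries, and their fitted differences could only be positive. They count in the median of the tested transporter genes. Slc38a8 is also among the 7 higher at an unadjusted limma p under 0.05. Only 3 genes of this pattern had fragments in all 3 knockout libraries. Slc38a8 had 34, 49 and 4 fragments in libraries 5, 6 and 7, Slc6a7, a brain proline carrier, had 37, 10 and 2, and Slc6a5, a glycine carrier of neurons, had 3, 1 and 1. Slc1a6, Slc7a9, Slc6a18, Slc15a5 and Slc6a11 were at 0 in at least 1 knockout library and reached at most 0.606 FPKM. The number of transporter genes with more than 3 fragments was 49, 52 and 49 in the Gdpd3+/+ libraries and 51, 52 and 55 in the Gdpd3-/- libraries. Of all genes in the table, 14610, 14043 and 13999 were listed at 0 in the Gdpd3+/+ libraries. In the Gdpd3-/- libraries it was 13600, 13883 and 11862, so fewer zeros there were not particular to the transporter genes. The share of all genes at 0 only in the Gdpd3+/+ libraries was not counted.

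Knockout library 7 stood apart from the other 2. Over the 27 genes with a mean of at least 1 FPKM, libraries 5 and 6 had 2 and 3 genes inside the wild-type range, and library 7 had 8. The median distance from the wild-type mean was 0.48, 0.47 and 0.26 on the log2(FPKM + 0.1) scale in libraries 5, 6 and 7. Across these 27 genes, which are not independent replicates, Pearson's r of the log2 values was 0.98 to 0.99 between wild-type libraries, 0.97 to 0.98 between library 7 and the wild type, and 0.76 to 0.82 between libraries 5 or 6 and the wild type. The gene farthest from the wild-type mean was Slc1a4 (−3.81, a value of 0) in library 5 and Slc38a3 (4.51) in library 6. Such single low genes weigh on r, which was not computed without them. Library 7 also had the lowest sum of muscle markers of the 3. Without it, limma called 8 of 55 transporter genes (14.5%), against 14.2% of all genes (9.83% higher and 4.36% lower). Lower were Slc3a2 (−0.81, adjusted p = 0.0080), Slc36a4 (−2.03, 0.023), Slc7a5 (−0.53, 0.039) and Slc38a2 (−0.37, 0.046), as log2 difference and adjusted p. Higher were Slc38a3 (3.90, 0.017), Slc38a8 (2.38, 0.027), Slc38a9 (0.77, 0.037) and Slc7a4 (0.67, 0.039). Slc38a8 was at 0 in every Gdpd3+/+ library. It passed the filter only through the knockout libraries, so its p-value is no support for a difference. Slc38a3 was low in the Gdpd3+/+ libraries, at 0.067 to 0.225 FPKM. All 8 calls rest on 2 knockout libraries.

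Genes around the carriers were read from fixed lists of the same fit. Of 25 genes of the amino acid response 24 were tested, and 0 were called higher and 0 lower. At an unadjusted p under 0.05 in limma, 10 were higher and 1 lower, beside 16.5% higher and 5.76% lower of all genes. Their median log2 difference was 0.34, beside 0.24 over all genes, and 0.12 beside 0.04 after TMM scaling. The lowest p-values were those of Eif4ebp1, an inhibitor of translation initiation downstream of mTORC1, of Phgdh, the entry enzyme of serine synthesis, and of Ddit3, a stress transcription factor. Eif4ebp1 was at 87.5, 96.0 and 89.9 FPKM in Gdpd3+/+ and 153, 201 and 117 FPKM in Gdpd3-/- libraries, without overlap (log2 difference 0.75, SE 0.19; limma adjusted p = 0.095). For Phgdh and Ddit3 the log2 differences were 0.40 and 0.44, with limma adjusted p-values of 0.096 and 0.098. Atf4 itself, outside the rule for named genes, was at 64.5 to 73.3 FPKM against 75.1 to 92.3 FPKM (limma adjusted p = 0.185).

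Of the 33 amino acid sensing genes upstream of mTORC1, 0 were called in either direction, and the median was 0.25, beside 0.24 over all genes. At an unadjusted p under 0.05 in limma, 6 were higher and 2 lower, near the 16.5% and 5.76% of all genes. Lamtor5 and Lamtor3, parts of the lysosomal Ragulator scaffold, had log2 differences of 0.44 and 0.38 (limma adjusted p = 0.078 and 0.110), and Rragb, a Rag GTPase, 0.44 (0.089). For Rragb the limma adjusted p was 0.034 with no filter on low values and 0.164 after quantile normalisation. After TMM scaling its log2 difference was 0.22, with a limma adjusted p of 0.311. Lamtor5, listed as Hbxip, was at 108, 106 and 120 FPKM against 141, 161 and 152 FPKM, all knockout libraries being higher. The 8 genes of branched-chain amino acid breakdown gave 0 calls and a median of 0.17. Bckdha, the E1 subunit of the dehydrogenase that commits these amino acids to breakdown, had a log2 difference of 0.61 (limma adjusted p = 0.107), Bckdhb 0.25 (0.368) and the transaminase Bcat1 0.97 (0.404). Of 20 other amino acid carriers, most of them of the mitochondrion, lysosome or synaptic vesicle, 19 were tested, with 0 calls and a median of −0.07. The 3 with the lowest p were Slc25a22, a mitochondrial glutamate carrier, Slc17a6, a vesicular glutamate carrier, and Slc25a15, the ornithine carrier, with log2 differences of 0.57, 1.56 and −0.36 (limma adjusted p = 0.138, 0.161 and 0.221).

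Among genes of glutamine and glutathione metabolism 1 was called higher and 1 lower of 14 tested, with a median of 0.08. Over all genes tested 1.71% were called, 1.09% higher and 0.616% lower. Neither of the 2 calls in the list held under every alternative. Gsr, glutathione reductase, was at 166, 170 and 175 FPKM in Gdpd3+/+ and at 60.2, 50.8 and 79.1 FPKM in Gdpd3-/- libraries, so it fell by 1.45 on the log2 scale (SE 0.16; limma adjusted p = 0.0209). The genotypes did not overlap, and the highest knockout library was far below the lowest wild-type library. Ggt5, a gamma-glutamyl transferase that cleaves extracellular glutathione conjugates, rose from 1.48, 1.82 and 1.56 FPKM to 3.96, 5.97 and 4.13 FPKM (log2 difference 1.46, SE 0.25; limma adjusted p = 0.0487), and its adjusted p was 0.073 after TMM scaling. Without the filter the adjusted p was 0.058 for Gsr and 0.067 for Ggt5, and without the intensity trend 0.066 and 0.071. For Ggt5 alone the call was also lost with a pseudocount of 1 (0.067), array weights (0.088) and quantile normalisation (0.099). With a library left out, Gsr kept a log2 difference of −1.62 to −1.30. Its adjusted p was 0.153, 0.148 and 0.153 without Gdpd3+/+ library 1, 2 or 3, 0.058 and 0.029 without Gdpd3-/- library 5 or 6, and 0.0042 without library 7. Ggt5 was called only without library 7 (adjusted p = 0.026), and without any of the other libraries its adjusted p was 0.053 to 0.252. The granulocyte markers were lower in the knockout libraries beside Gsr, and their part in its level was not tested.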

How the data were processed

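Long-term CML stem cells of 3 Gdpd3+/+ and 3 Gdpd3-/- libraries were compared. Per the study's methods and the submitters' processing notes, RNA was amplified with a SMART-Seq v4 kit, cut with Nextera XT and sequenced as paired-end reads of 150 bases. The submitters name Trimmomatic, Trim Galore, cutadapt 1.16, STAR 2.6.1a, featureCounts 1.6.1 and genome build mm9. The strand setting and the treatment of reads that map to several places are not given in the sources used here. The reads carry no molecular identifiers, so fragment counts give counting error only.

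The authors deposited FPKM values of 36976 Ensembl genes, with gene lengths and mm9 coordinates. FPKM times length was a whole number of hundredths of a fragment (tolerance 0.02 hundredths) for 100% of values above 0 in each library, with many low values at 1 fragment or simple fractions of it, which gave depths of 21335000 to 62762000 fragments, the median depth being 2.44 times as high in Gdpd3+/+. The authors' DESeq2 comparison table (fold changes and p-values) was not used, and the count model of the study was not run, as the values are FPKM.

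Values were transformed to log2(FPKM + 0.1) and genes with a mean of at least 0.05 FPKM were fitted with genotype as the only term in limma 3.58.1 (R 4.3.3), using an intensity trend, moderated tests and Benjamini-Hochberg adjustment over all 24689 genes. The fit was first tested on simulated data. Fold changes on this scale understate those of low genes. Exact permutation tests of the means (20 assignments, smallest two-sided p 0.1) used SciPy 1.17.1. TMM scaling trimmed 30% of M and 5% of A values. The alternatives were other pseudocounts, filters, scalings and weights, and leaving out each library; limma voom on recovered fragments was added after seeing the data.

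Named transporter genes were those with an adjusted p under 0.05, those with a mean of at least 1 FPKM in either genotype and no overlap, the 10 highest, main carriers of each class, and those at 0 in all libraries; in the lists, genes with an adjusted p under 0.05 or else the 3 with the lowest p. Slc1a4, Slc38a3, Slc38a8, Atf4 and the genes without fragments in Gdpd3+/+ libraries were picked once their values were known. The member genes, lists and markers were chosen with earlier results of these data known. Promoters came from RefSeq on GRCm38.p6 and were not joined to mm9 coordinates. Of the transporter genes, 19 symbols had no promoter entry. One gene of the rule is counted but not reported here by name.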

Additional observations from a re-analysis of the deposited data

How the results depend on the processing

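No paired analysis was possible because the genotypes share no replicate number. The count of 0 transporter genes called became 1 (0 higher and 1 lower, Slc3a2) with a mean of at least 1 FPKM, after TMM scaling, after quantile normalisation, and with limma voom on recovered fragments without and with TMM scaling. It was 0 with the other pseudocounts, no filter, no intensity trend and array weights, and ran from 0 to 8 when a library was left out (0 to 4 higher, 0 to 4 lower), with 8 without Gdpd3-/- library 7. Over all genes, the 422 calls ranged from 0, without Gdpd3+/+ library 1, to 3413, without Gdpd3-/- library 7. The median log2 difference of the transporter genes, 0.13, was −0.13 with a mean of at least 1 FPKM, −0.054 after TMM scaling, −0.13 after quantile normalisation, −0.10 in voom with TMM scaling, and 0.11 to 0.25 with a library left out. In the lists, the 2 calls in glutamine and glutathione metabolism became 1 (lower) with a pseudocount of 1, TMM scaling, quantile normalisation and array weights, and 0 without the filter and without the intensity trend, and ran from 0 to 5 with a library left out. The 0 calls in amino acid sensing became 1 without the filter, and those in other amino acid carriers 1 in voom without and with TMM scaling. With a library left out, calls ran from 0 to 2 in the amino acid response and 0 to 3 in sensing. They ran from 0 to 1 in branched-chain amino acids and 0 to 2 in other carriers. In the fit used throughout, 24, 33, 8 and 19 genes of these lists were tested, and 14 of glutamine and glutathione metabolism. Each of the 5 lists had its highest count without Gdpd3-/- library 7, where 14.2% of all genes were called.

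Signs turned for 8 of the named gene records, none of them called in the fit used throughout. With TMM scaling the log2 difference was −0.033 for Slc38a10, −0.12 for Slc7a6os and −0.18 for Slc43a1, and in voom with TMM scaling −0.030, −0.077 and −0.16 in that order and −0.052 for Slc15a3. After quantile normalisation it was −0.00053 for Slc7a6os, −0.057 for Slc43a1 and −0.35 for Slc36a1. With a library left out it ran from −0.38 to 0.18 (without Gdpd3-/- library 6) for Slc1a5, from −0.061 (without library 6) to 0.26 for Slc7a6os, from −0.019 (without library 7; −0.016 without library 6) to 0.14 for Slc43a1, from −0.36 to 0.0026 (without library 5) for Slc15a4, and from −0.18 (without library 6) to 1.12 for the shorter model of Slc38a9. The cause was not tested. The lower depth of the Gdpd3-/- libraries, 21335000 to 36421000 fragments, limits the genes under 1 FPKM.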
